A study of Mus musculus with 6 samples.

Results

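The cholesterol synthesis enzymes and the SREBP system that controls them were followed as 26 genes in mouse ovary. They were chosen by name from a list of the pathway, and a probe was found for each of the 26 among the 31791 gene names on the array. In Msmo1 the probe carries the older name Sc4mol. Each gene was read by its brightest probe, all 26 passed the filter on background, which 19435 gene names passed, and each was well above background on all 6 arrays. Comparisons with kept genes use the 19229 of these that had a value on every array.

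The arrays compare ovaries of female C57BL/6J mice, 3 labelled wild type and 3 labelled SeBP1 knockout, all aged 20 weeks. SeBP1 is the selenium-binding protein encoded by Selenbp1, and the labels name no other allele or agent and do not give the deleted part of the gene. Total RNA of whole ovary was labelled with Cy3 and hybridised to single-colour oligonucleotide arrays, 1 sample per array. The sources used here do not give the stage of the estrous cycle.

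Cells make cholesterol from acetyl-CoA by way of mevalonate, isoprenoids, squalene and lanosterol, and ovarian steroid hormones are made from cholesterol. Transcription of the pathway is driven by SREBP proteins, which are held in the endoplasmic reticulum with the escort Scap by the Insig proteins when sterols are plentiful. When sterols are scarce, Scap carries SREBP to the Golgi, where the proteases encoded by Mbtps1 and Mbtps2 release the part that enters the nucleus and binds the promoters of the enzyme genes.

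Signals are given as log2 of the processed intensity relative to the 75th percentile of the array, and a difference is the knockout mean minus the wild-type mean on that scale. The 3 knockouts were the lowest arrays for Selenbp1, with a difference of -2.75 and a standard error of 0.13 (limma, adjusted p = 0.0104). That probe is also matched to the close relative Selenbp2, and it was still well above background on the 3 knockout arrays. Wild type replicates 1 and 2 lay on slide 1, and wild type replicate 3 lay on slide 2 with the 3 knockouts. Wild type replicate 3 stood apart in some measures of quality. It had the fewest spots well above background, at 61.6% against 63.9% to 69.3% elsewhere. It had the widest spread between spots of the same probe, where the coefficient of variation had a median of 6.46%, and of 2.35% to 3.34% elsewhere. Its outlier spots were the fewest, at 192 against 229 to 459. It also lay highest for most of the genes described here. Values without it are therefore given beside many of the results that it moved, though not beside all.

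All 18 synthesis enzymes were lower in the knockout mean, by a median of -0.42, but none passed the test and the arrays of each genotype were widely spread. Over the 26 members 24 were lower, with a median of -0.33, whereas 10507 of 19229 kept genes were lower, with a median of -0.018. At an adjusted p under 0.05 over all kept probes, limma called 0 of the 26 members, against 0.0041% of all 24415 probes. At an unadjusted p under 0.05 it gave 1 member, Sc5d, and 3.95% of all probes. Without wild type replicate 3 the enzyme median was -0.060 and the members' median -0.054. Without knockout replicate 2 these medians were -0.20 and -0.16. A fit with slide as a block compares the knockouts only with wild type replicate 3, which shared their slide. Its enzyme median was -1.21, and 14 members had an unadjusted p under 0.05, against 9.78% of all probes, but the smallest adjusted p of a member was 0.332 (limma).

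**Figure D1:**
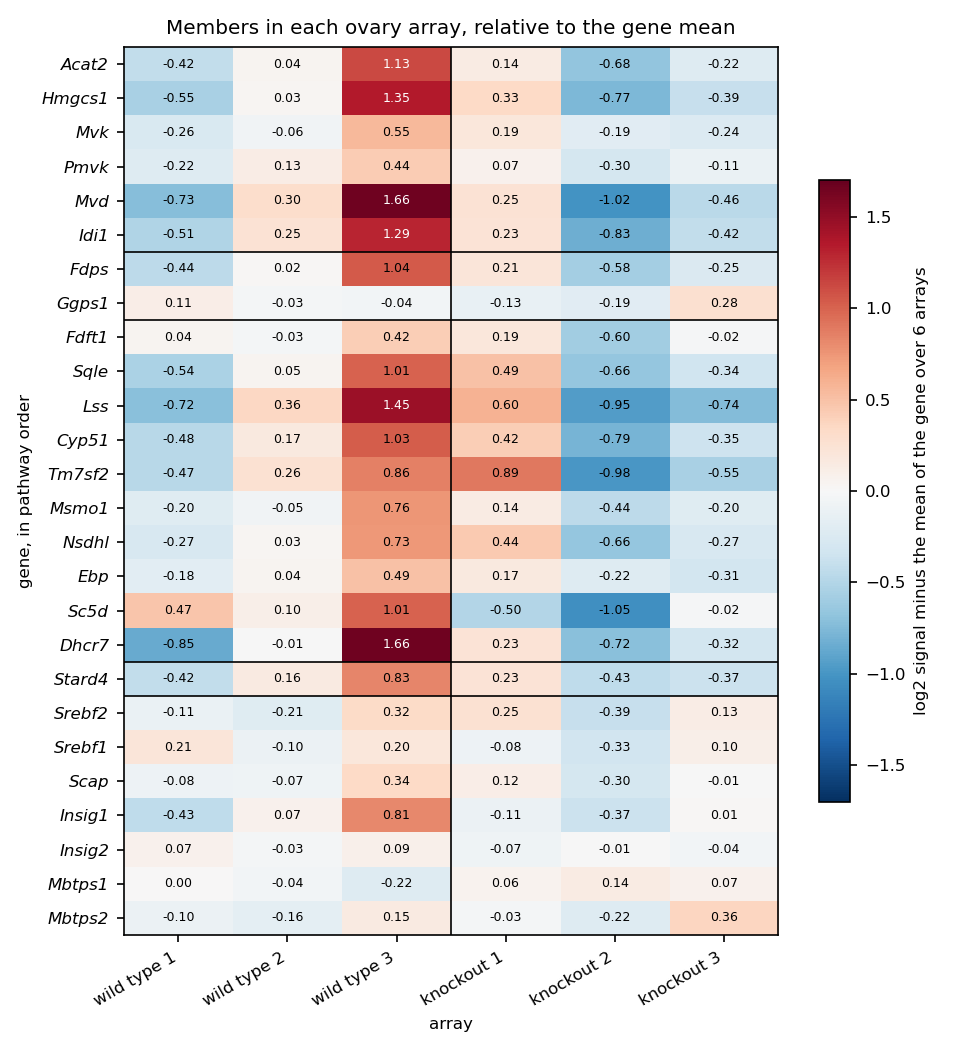
Log2 signal of the 26 members (rows, in pathway order) in each of the 6 arrays (columns), minus the mean of each gene over the arrays. Horizontal lines separate mevalonate enzymes, isoprenoid enzymes, sterol enzymes, Stard4 and the SREBP control genes. Wild type replicate 3 is red for most enzymes and knockout replicate 2 is blue, and the SREBP control genes are paler except Insig1.

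Promoters of the enzymes are shown because SREBP acts there, together with NF-Y, which binds CCAAT, and Sp1, which binds GGGCGG. RefSeq promoter windows of build GRCm38.p6, from 250 bases before to 50 after each start, were found for 22 of the 26 members and not for Fdft1, Fdps, Sqle and Stard4. The last 150 bases before the start are printed 5′ to 3′ on the gene's strand for 6 enzymes and, as a contrast, for the protease gene Mbtps1. These genes are a selection and do not stand for the whole set. Each printed enzyme holds CCAAT and Mbtps1 does not, whereas 4 of the 7 SREBP control genes hold it in the longer window. Capitals mark TCACNCCAC, a core of the sterol regulatory element, and CCAAT, each on either strand, so that CCAAT also appears as ATTGG. The windows are Hmgcs1 at chr13:119690201-119690350 on the plus strand, Mvk at chr5:114444119-114444268 plus, Mvd at chr8:122443423-122443572 minus, Idi1 at chr13:8885456-8885605 plus, Lss at chr10:76531455-76531604 plus, Sc5d at chr9:42264301-42264450 minus and Mbtps1 at chr8:119558762-119558911 minus.
Hmgcs1: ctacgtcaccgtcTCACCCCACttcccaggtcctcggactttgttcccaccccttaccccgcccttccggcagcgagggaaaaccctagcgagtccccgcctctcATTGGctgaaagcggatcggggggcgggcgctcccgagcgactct
Mvk: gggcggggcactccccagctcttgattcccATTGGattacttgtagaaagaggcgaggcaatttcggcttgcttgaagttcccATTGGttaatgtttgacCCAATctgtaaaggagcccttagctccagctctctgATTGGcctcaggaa
Mvd: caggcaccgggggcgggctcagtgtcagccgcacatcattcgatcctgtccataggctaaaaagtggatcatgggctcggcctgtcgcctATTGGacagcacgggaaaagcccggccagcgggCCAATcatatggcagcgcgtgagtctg
Idi1: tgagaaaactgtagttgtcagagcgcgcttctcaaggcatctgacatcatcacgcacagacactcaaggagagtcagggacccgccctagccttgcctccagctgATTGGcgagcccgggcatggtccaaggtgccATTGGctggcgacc
Lss: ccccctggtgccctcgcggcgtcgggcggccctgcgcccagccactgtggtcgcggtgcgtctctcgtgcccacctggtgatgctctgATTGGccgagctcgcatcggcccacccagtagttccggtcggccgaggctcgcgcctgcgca
Sc5d: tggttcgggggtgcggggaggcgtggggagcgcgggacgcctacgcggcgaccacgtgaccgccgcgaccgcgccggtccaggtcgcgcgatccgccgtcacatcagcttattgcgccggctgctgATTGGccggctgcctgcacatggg
Mbtps1: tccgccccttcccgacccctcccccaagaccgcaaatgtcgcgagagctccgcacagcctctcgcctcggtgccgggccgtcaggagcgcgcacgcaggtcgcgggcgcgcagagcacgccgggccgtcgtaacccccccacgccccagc

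A gene was counted where any of its windows held the match, and 5 of the members had several windows. CCAAT was present in a 300-base window of 14 of 15 enzymes and 4 of 7 SREBP control genes. Over all 27025 genes with a window the share was 41.1%. Acat2 was the enzyme without CCAAT. In 13 of the 15 enzymes and 2 of the 7 control genes a match lay in the 100 bases before the start, a distance chosen after the matches were seen, against 21.6% of all genes. Those 2 control genes were Insig2 and Srebf1, which each had several windows, not all of them with such a match. The same held for Dhcr7 among the enzymes. GGGCGG, or CCGCCC on the other strand, was present in 13 of 15 enzymes and 6 of 7 control genes, against 38.2% of genes. The spelled-out core TCACNCCAC, or GTGGNGTGA on the other strand, matched in 1 enzyme, Hmgcs1, starting at -137, and in 1.44% of genes. No match of one motif overlapped a match of another in the members. A match describes letters, not binding, and these windows were read from the reference and not from the ovaries.

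In the mevalonate segment the knockout mean was lower for all 6 enzymes, the median difference was -0.53, and none passed the test. This median was -0.064 with wild type replicate 3 left out and -0.30 with knockout replicate 2 left out. Hmgcs1 encodes the cytosolic HMG-CoA synthase, which makes HMG-CoA. Wild type replicates 1, 2 and 3 gave log2 signals of 3.47, 4.05 and 5.37, and the knockouts, in the same order of replicates, gave 4.35, 3.25 and 3.62. The groups overlapped, and the highest and lowest wild types differed 3.73-fold, more than the 1.47-fold between the genotype means. The difference was -0.55 (standard error 0.52, limma, adjusted p = 1.00), and -0.016 without wild type replicate 3.

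Mvd, the decarboxylase that makes isopentenyl diphosphate, had the widest gap between genotype means of this segment. Its signal was -0.25, 0.78 and 2.13 in the wild types and 0.72, -0.54 and 0.015 in the knockouts, again in replicate order. Knockout replicate 1 lay close to wild type replicate 2 and above wild type replicate 1, so the groups overlapped. The difference was -0.82 (standard error 0.62, limma, adjusted p = 1.00), which became -0.20 when wild type replicate 3 was left out and -0.52 when knockout replicate 2 was. The probe lies at chr8:124957750-124957809 (mm9), but which exon it reads was not analysed here.

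Idi1, the isomerase of the activated isoprene units, followed the same order of arrays. It was at 0.98, 1.74 and 2.79 in the wild types and at 1.73, 0.66 and 1.08 in the knockouts. Knockout replicate 1 was level with wild type replicate 2, and the difference of -0.68 with a standard error of 0.49 did not pass the test (limma, adjusted p = 1.00) and was -0.21 without wild type replicate 3. Acat2, the cytosolic thiolase that joins acetyl-CoA units, differed by -0.50, and by -0.063 without wild type replicate 3. The kinases Mvk and Pmvk differed least, by -0.15 and -0.23, and without wild type replicate 3 they were at 0.082 and -0.065.

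The isoprenoid branch point gave 2 unlike genes. Fdps makes farnesyl diphosphate, the precursor of squalene and of prenyl groups, and was at 3.69, 4.15 and 5.16 in the wild types and 4.34, 3.55 and 3.88 in the knockouts. Wild type replicate 3 was alone above 5, and the difference of -0.41 with a standard error of 0.40 became 0.0023 without it. Ggps1 makes geranylgeranyl diphosphate for protein prenylation and leads away from cholesterol. It was at 1.04, 0.90 and 0.88 in the wild types and 0.80, 0.73 and 1.20 in the knockouts, and knockout replicate 3 was the highest array. Its wild-type SD was 0.086, and 20.8% of kept genes had a lower one. Its difference was -0.027 with a standard error of 0.15, and with slide as a block the sign turned, to 0.031.

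All 10 enzymes from squalene to cholesterol also had a lower knockout mean, and their median difference was -0.39, or -0.072 with wild type replicate 3 left out and -0.19 with knockout replicate 2 left out. Sc5d, the desaturase of a late step, was the member with the largest difference and the enzyme whose groups did not overlap. Its signal was 2.58, 2.20 and 3.11 in the wild types and 1.60, 1.06 and 2.08 in the knockouts. The closest arrays were wild type replicate 2 and knockout replicate 3, which differed little. Wild type was at 2.63 ± 0.46 (SD, n = 3) and the knockout at 1.58 ± 0.51 (SD, n = 3), which is 2.07-fold lower. The difference was -1.05 (standard error 0.33, limma, adjusted p = 1.00, unadjusted p = 0.0167). Leaving out wild type replicate 3 gave -0.81, leaving out knockout replicate 2 gave -0.79, and the slide block gave -1.53. Groups did not overlap in 8.58% of kept probes, and the knockouts were all below the wild types in 4.64%. The Sc5d probe lies at chr9:42062857-42062916 (mm9).

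Dhcr7, which encodes the last reductase of one route to cholesterol, had the widest wild-type range among the members. It was at -0.89, -0.047 and 1.62 in the wild types and 0.19, -0.76 and -0.36 in the knockouts. The wild types spanned 5.70-fold and enclosed all 3 knockouts. Its wild-type SD of 1.28 was above that of 99.2% of kept genes. The difference was -0.53 (standard error 0.63, limma, adjusted p = 1.00), and 0.16 without wild type replicate 3.

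Lss, the cyclase that makes lanosterol, was at -1.85, -0.78 and 0.31 in the wild types and -0.54, -2.09 and -1.87 in the knockouts. Wild type replicate 1 sat with knockout replicates 2 and 3, and knockout replicate 1 sat above wild type replicate 2. The difference was -0.73 (standard error 0.63, limma, adjusted p = 1.00), or -0.18 without wild type replicate 3. Cyp51, the lanosterol demethylase, differed by -0.49, or -0.091 without wild type replicate 3, and its highest and lowest arrays were those of Lss. Sqle, the squalene epoxidase and a controlled step of the pathway, differed by -0.34, and by 0.074 without wild type replicate 3.

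The other sterol enzymes had overlapping groups and differences of at most 0.43 in size. Fdft1, the squalene synthase, differed by -0.29, and by -0.059 without knockout replicate 2. Tm7sf2, a sterol reductase, differed by -0.43, or -0.11 without wild type replicate 3 and -0.045 with knockout replicate 2 left out. Its highest array was knockout replicate 1 at 2.02, beside wild type replicate 3 at 1.99. Msmo1 and Nsdhl, which act together to remove methyl groups from the sterol ring, both differed by -0.33, and by -0.039 and -0.040 without wild type replicate 3. Ebp, the sterol isomerase, differed by -0.24, or -0.052 without wild type replicate 3, and its lowest array was knockout replicate 3. Stard4, a carrier that moves sterol between membranes, differed by -0.38, or -0.057 without wild type replicate 3.

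**Figure D2:**
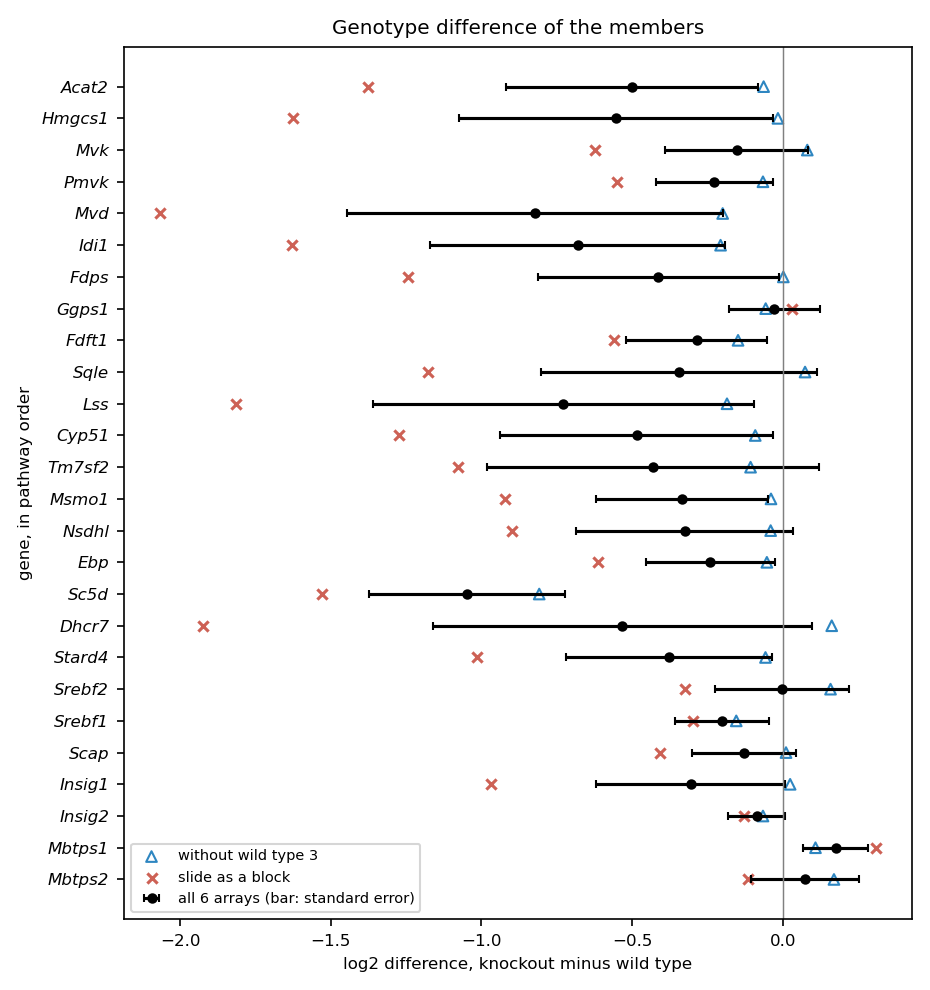
Log2 difference of each member, knockout minus wild type (x axis; y axis, genes in pathway order), over all 6 arrays (black points with standard errors), without wild type replicate 3 (blue triangles) and with slide as a block (red crosses). Most enzymes lie near 0 without wild type replicate 3 and between -2.07 and -0.55 with the block, apart from Ggps1 at 0.031, while Sc5d lies at -0.81 without that array.

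The genes that sense sterols and release SREBP had a narrower spread over the arrays than most enzymes. Of the 7, 5 had a lower and 2 a higher knockout mean, with a median of -0.086, or 0.025 without wild type replicate 3 and -0.0092 with knockout replicate 2 left out, and none passed the test. Srebf2 encodes the SREBP that acts mainly on cholesterol genes. Its signal was -1.19, -1.29 and -0.76 in the wild types and -0.83, -1.47 and -0.96 in the knockouts. Both genotype means were -1.08, and the difference was -0.0019 (standard error 0.22, limma, adjusted p = 1.00). Without wild type replicate 3 the difference was 0.16. The second, dimmer probe of Srebf2 also gave 0.16 over all arrays, and the array weights of limma turned the first to 0.25.

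Srebf1, whose products act more on fatty acid genes, was the dimmest member, between -3.55 and -3.02 over the arrays, and differed by -0.20 with a standard error of 0.16. Scap was the brightest, between 4.60 and 5.24, and differed by -0.13, or 0.011 without wild type replicate 3. Insig1, itself an SREBP target, was the control gene that resembled the enzymes in its wild-type spread. It was at -1.55, -1.05 and -0.31 in the wild types and -1.23, -1.49 and -1.11 in the knockouts. Above -1 lay wild type replicate 3 alone, and the difference of -0.31 with a standard error of 0.31 became 0.025 without it.

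Insig2, the partner of Insig1 in holding Scap, was among the steadiest members. It was at 0.90, 0.80 and 0.91 in the wild types and 0.75, 0.82 and 0.79 in the knockouts. The groups overlapped within a narrow band, and the difference was -0.086 with a standard error of 0.096. In Mbtps1, the site-1 protease gene, the direction was the opposite. It was at 3.90, 3.85 and 3.67 in the wild types and 3.95, 4.03 and 3.96 in the knockouts, so that all 3 knockouts lay above all 3 wild types by a small margin. Groups did not overlap in 2 of the 26 members, Sc5d and Mbtps1, and in 1708 of the 19229 kept genes. The Mbtps1 difference was 0.18 (standard error 0.11, limma, adjusted p = 1.00), or 0.11 without wild type replicate 3, its lowest array. On the dimmer probe of the gene it was 0.070 with overlapping groups. Mbtps2, the site-2 protease gene, differed by 0.075 with a standard error of 0.18. It differed by 0.17 without wild type replicate 3, and by -0.12 with slide as a block.

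The spread between wild-type arrays was wider than the genotype difference for nearly all members, and also for most kept genes. The wild types lay on slides 1 and 2 and the knockouts on slide 2 alone. In the wild-type spread, slide, array quality and ovary therefore cannot be told apart, and it is not fully comparable with that of the knockouts. The range of the 3 wild types exceeded the size of the difference in 25 of 26 members, all but Sc5d, and in 85.9% of all kept genes. The median wild-type SD was 0.71 over the enzymes and 0.18 over the control genes, against 0.17 over all kept genes. In the knockouts these medians were 0.49, 0.22 and 0.18. The wild-type SD was among the highest 10% of kept genes in 12 of 18 enzymes and in 1 of 7 control genes, Insig1.

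The enzymes shared much of their order over the arrays. Wild type replicate 3 was the highest array in 16 of 18 enzymes and 4 of 7 control genes, against 21.4% of all kept genes. Knockout replicate 2 was the lowest in 15 enzymes and 4 control genes, against 21.0% of genes. Within wild type, replicate 3 was above replicates 1 and 2 in 17 of 18 enzymes, against 35.2% of genes. Within the knockout, replicate 1 was above replicate 2 in 18 of 18, against 42.5% of genes. Knockout replicate 1 was above wild type replicate 1 in 16 of 18 enzymes, against 45.1% of genes, and above wild type replicates 1 and 2 and knockout replicates 2 and 3 in 13 of 18, against 20.0% of genes. The order of the arrays in these enzymes thus crossed the genotypes, with wild type replicate 3 and knockout replicate 1 at the top and wild type replicate 1 and knockout replicate 2 at the bottom.

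Markers of the corpus luteum, the tissue that makes progesterone after ovulation, varied between the same arrays. The enzymes' summed signal, in units of the 75th percentile of the array, was 78.6, 98.7 and 183 in the wild types and 112, 66.6 and 80.7 in the knockouts. Over 11 of 12 luteal markers, leaving out Hsd3b1, which lacked a value on 2 arrays, the sum was 243, 224 and 398 in the wild types and 356, 98.9 and 265 in the knockouts. In both sums wild type replicate 3 was the highest and knockout replicate 2 the lowest, and knockout replicate 1 was the second highest in both. The rest of the order differed, with wild type replicate 2 above wild type replicate 1 in the enzymes and below it in the luteal markers. The spread differed too. The median SD of the enzymes was 0.71 in the wild types and 0.49 in the knockouts, and that of the luteal markers was 0.56 and 1.19.

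Of the 12 luteal markers 9 had a lower knockout mean, the differences ran from -1.22 to 1.36 with a median of -0.46, none was called, and none was at 0. That median was -0.15 when wild type replicate 3 was left out and 0.037, of the opposite sign, when knockout replicate 2 was. Star, which brings cholesterol into mitochondria, differed by -0.45, or 0.079 without wild type replicate 3, and Scarb1, a receptor that takes up cholesterol from lipoproteins, by -0.47, or -0.15 without that array. The part of luteal tissue in the enzyme differences was not tested, and in RNA of whole ovary fewer cells of a type and less RNA per cell cannot be told apart. The lowest granulosa sum was also in wild type replicate 3, at 153 against 171 to 294 on the other arrays, and the part of that in the result was not tested either.

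**Figure D3:**
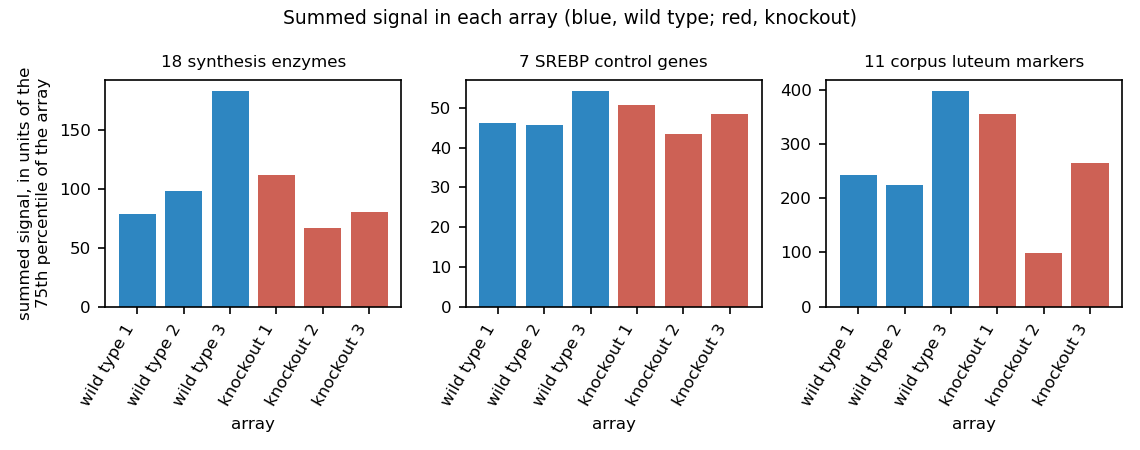
Summed probe signal in each array (y axis, units of the 75th percentile of the array; bars, blue for wild type and red for knockout) for 18 synthesis enzymes, 7 SREBP control genes and 11 corpus luteum markers. In the enzymes and the luteal markers wild type replicate 3 is highest, at 183 and 398, and knockout replicate 2 lowest, at 66.6 and 98.9. The control genes run from 43.3 to 54.3. Bright probes weigh most in a sum, and that of the control genes comes mainly from Scap and Mbtps1.

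Probe signals of the members spanned a wide range, and neighbours in their order mostly overlapped. By mean signal the order ran from Scap, Fdps, Hmgcs1, Mbtps1, Msmo1 and Ebp down through Mvk, Sqle, Pmvk, Sc5d, Fdft1, Idi1, Tm7sf2, Ggps1, Insig2, Mvd and Dhcr7. Nsdhl, Stard4, Srebf2, Insig1, Lss, Cyp51, Acat2, Mbtps2 and Srebf1 followed. Each gene overlapped the next over the 6 arrays except at the end, where the lowest Mbtps2 array, at -2.53, was above the highest Srebf1 array, at -3.02. This is an order of probe signals, which depend on the probe as well as on the transcript, and is not an order of transcript amounts.

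**Figure D4:**
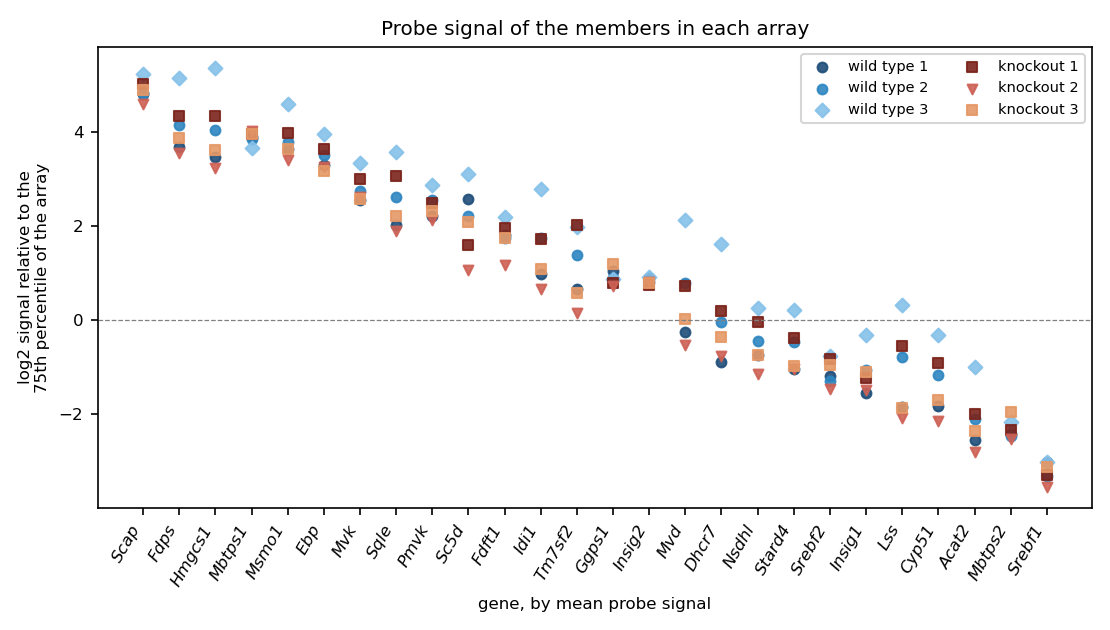
Log2 signal of each member relative to the 75th percentile of the array (y axis) in each of the 6 arrays (points), with genes ordered by mean signal (x axis). Signals run from Scap, between 4.60 and 5.24, to Srebf1, between -3.55 and -3.02, and wild type replicate 3 is the top point in most enzymes.

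More than 1 probe was kept for 11 members, and their differences had the same sign on both probes in 10, the exception being Srebf2. The gap between the probes of a gene was at most 0.16, in Srebf2. For Tm7sf2 the second probe gave -0.35 and for Nsdhl -0.35. For Stard4 it gave -0.28 and for Fdft1 -0.23.

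Genes next to the members in the pathway had the same lean and no called difference. All 5 other sterol synthesis genes had the lower mean in the knockout, by a median of -0.19, or -0.079 without wild type replicate 3, and limma called 0, with 0 at an unadjusted p under 0.05. Erg28, a scaffold of the demethylation enzymes, differed by -0.16 with a standard error of 0.13, and its highest array was again wild type replicate 3. The differences of the 5 ran from -1.19 to -0.043. The largest, in Hsd17b7, a ketosteroid reductase of the pathway named here after its values were seen, had a standard error of 1.34. Hsd17b7 was at -0.50, 2.13 and 2.89 in the wild types and 2.97, -1.34 and -0.68 in the knockouts, so that knockout replicate 1 was the highest array and the groups overlapped.

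Other SREBP targets, most of them in fatty acid synthesis, were lower in 13 of 14 kept genes of 15 listed, with a median of -0.28, or -0.15 without wild type replicate 3, and limma called 0. At an unadjusted p under 0.05 there were 2, against 3.95% of all probes, and of these Scd1, a fatty acid desaturase, had a p of 0.0319. Scd1 was at 0.39, -1.26 and 0.35 in the wild types and -1.01, -1.97 and -1.58 in the knockouts, so that wild type replicate 2 lay among the knockouts. The Scd1 difference was -1.35 (standard error 0.49, limma, adjusted p = 1.00), and -1.08 without wild type replicate 3. Wild type replicate 1, the highest array for Scd1, also had the highest sum over the 5 kept of 8 adipocyte markers, at 18.7 against 1.20 to 2.08 on the other arrays. The part of fat tissue in the Scd1 difference was not tested, and without that array the difference was -1.07. Acaca, the enzyme that makes malonyl-CoA, differed by -0.30.

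Genes of sterol sensing and protein turnover were lower in 8 of 10 kept of 11 listed, with a median of -0.052, and limma called 0, with 0 at an unadjusted p under 0.05. Among them the ubiquitin ligase gene Syvn1 differed by -0.21, Faf2 by -0.18 and Marchf6 by -0.11. In the 5 LXR genes, which answer to sterol excess, 3 were lower, with a median of -0.028, or 0.043 without wild type replicate 3, and limma called 0, with 0 at an unadjusted p under 0.05. Abcg1, a sterol exporter, differed by 0.30 with a standard error of 0.24.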

How the data were processed

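Ovary RNA of 3 wild-type and 3 knockout samples was measured on 6 single-colour arrays. The deposited scanner files hold spot intensity from Agilent Feature Extraction 10.7.1.1, background-subtracted within each array, with mm9 probe coordinates, per the file headers. The authors' deposited series table holds further intensity values, with the same median of 119.8 in all 6 columns. They are linear and not centred by gene. The sources used here do not say how that table was normalized, and it served as an alternative.

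Outlier spots, 192 to 459 per array, were left out, and no spot was saturated. Each value is log2 of the deposited processed intensity minus its 75th percentile on that array, which was 1309 to 1759. Spots of a probe were averaged. The filter on background kept 24415 of 39429 probes, those well above background on all 3 wild-type or all 3 knockout arrays. The brightest probe stood for a gene. The genotype test was the moderated linear model of limma (version 3.58.1, R 4.3.3), two-sided, with genotype as the only term and Benjamini-Hochberg adjustment over all kept probes at 0.05. The fit was tested on simulated data. With slide as a block the difference rests on slide 2, where wild type replicate 3 is the lone wild type. The number of arrays limits the precision.

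All 26 members were named, from each related list up to 3 genes with the smallest p, and from marker lists at most 2. The values of 3 listed genes that this rule named are not reported here. The members, lists and tests were chosen with earlier results of these data known. The labels do not say whether arrays are separate animals, and p-values measure only the spread between these samples. Alternatives covered background correction, normalization, filters, slide, replicate block, array weights, probe choice and each array left out.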

Additional observations from a re-analysis of the deposited data

How the results depend on the processing

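In each of the 19 alternatives limma called 0 of the 26 members. The members' median difference stayed below 0 in all of them. It was -0.33 over all arrays and -0.95 with slide as a fixed block or on the shared slide alone. With each array left out in turn it ran from -0.57, without wild type replicate 1, to -0.054, without wild type replicate 3. Over all probes limma called 1, and 0 with no filter on background, with slide as a fixed block, on the shared slide alone and with the replicate block. It called 6 with array weights and 0 to 19 with each array left out in turn, with 19 without wild type replicate 3.

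Of the members 24 were lower over all arrays, 17 without wild type replicate 3, 20 with array weights, and 23 with quantile normalization or the deposited table. The sign turned for Srebf2 with quantile normalization (0.016), the deposited table (0.016), array weights (0.25) and the mean over probes (0.077). It turned with slide as a fixed block and on the shared slide alone for Ggps1 (0.031) and Mbtps2 (-0.12). Array weights turned Ggps1 (0.093), Scap (0.031) and Srebf1 (0.019). With each array left out in turn, the difference ran from -0.17 to 0.062 for Ggps1, -0.22 to 0.011 for Scap, -0.74 to 0.0023 for Fdps, -0.32 to 0.082 for Mvk, -0.70 to 0.074 for Sqle, -1.09 to 0.16 for Dhcr7, -0.13 to 0.19 for Srebf2, -0.60 to 0.025 for Insig1 and -0.086 to 0.20 for Mbtps2. The cause of these changes was not tested.

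The description labels number the samples as replicates 1 to 3 in both genotypes, while the sample titles carry other numbers. The labels do not say that same-numbered samples belong together, so the numbers were not taken as pairs. Same-numbered arrays had correlations across probes of -0.33, 0.30 and -0.027 in their deviations from the genotype means. Arrays of unlike number had -0.30 to 0.36. Deviations within a genotype depend on one another, so these correlations cannot decide whether samples were paired. With the replicate block the members' median was -0.33.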

Other observations

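Summed markers of other cells in the ovary were also compared between arrays. In units of the 75th percentile of the array, 10 oocyte markers summed to 44.0, 46.5 and 25.1 in the wild types, in replicate order, and to 29.8, 45.7 and 24.9 in the knockouts. Wild type replicate 3 was thus near the bottom for oocyte markers. All 10 had a lower knockout mean, as the enzymes did, by a median of -0.21, or -0.47 without wild type replicate 3, and none was called. For 8 macrophage markers the sums were 11.4, 10.5 and 11.8 in the wild types and 13.9, 10.4 and 11.6 in the knockouts. In these sums knockout replicate 1 and wild type replicate 3 were the top arrays and knockout replicate 2 the lowest, though the sums were close. Relative to each gene's mean over the arrays, the median macrophage marker was at -0.11 in wild type replicate 3 and 0.37 in knockout replicate 1. By that measure wild type replicate 3 was not near the top, whereas the median enzyme was at 1.01 there. Over 5 theca markers the sums were 22.3, 13.0 and 8.20 in the wild types and 22.7, 14.6 and 19.3 in the knockouts. Wild type replicate 3 was thus the lowest array for theca markers. Among adipocyte markers, Cfd, which encodes adipsin, was at 3.44 on the log2 scale in wild type replicate 1.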
